A study of Rattus norvegicus with 66 samples.

Results

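The high dose of bisphenol A (BPA5) was compared with controls in XY pups of the Long Evans rat on postnatal day (PND) 6. Members were the 7 male BPA5 pups, each from its own litter, and all 9 male control pups, from 9 litters, so that 16 of the 64 pups and 17 of the 66 libraries of the study entered the comparison. BPA5 dams received bisphenol A at 5 mg/kg body weight per day in soy-free chow, beginning before mating and lasting until the pups were killed, so that pups were exposed through the dam only. The controls were 4 pups of feeding controls (CONF, dams on the same chow without the chemical) and 5 pups of injection controls (CONSC, dams injected subcutaneously with the vehicle DMSO), which the study combined. RNA came from the dorsal hippocampus, which per the study's methods was dissected with the cortex lateral to it. Expression was measured by RNA-seq as raw read counts per gene, and levels are given as counts per 1000000 counted reads (CPM), which are not corrected for gene length.

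Bisphenol A is a plastic monomer that binds estrogen receptors and the estrogen-related receptor ERRγ, and it is studied as an endocrine disrupter. At PND 6 the rat hippocampus still adds granule cells and forms synapses, and GABAergic interneurons, which arise outside the hippocampus and migrate in, are settling and maturing. Sox and Pou proteins are DNA-binding transcription factors that act in neural progenitors and in young neurons, the interneurons among them.

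Depth ran from 12.3 to 36.7 M counts (1 M being 1000000) per BPA5 pup, with a median of 29.4 M, and from 10.8 to 34.2 M per control pup, with a median of 14 M. Male pup names in the labels end in a capital letter (form A) or a lower-case one (form B). All 7 BPA5 libraries have form B. Of the 10 male control libraries, 9 have form A and 1 has form B. The form B control is a second library of pup N2-2y, named without the separator (_) that the first has after the group name, and both libraries of that pup were summed. All female names end in a lower-case letter, so for female controls form A was read from that separator and form B from its absence. The names of the BPA5 males carry the separator, so they have form B by the last letter only. Both readings of form change together only between the names of N2-2y. Whether they mark the same thing is not known. The form of treated females cannot be read. What the form of a name stands for is not given in the labels, and apart from N2-2y form and treatment cannot be told apart. The pups' sex labels held: Kdm5d, a Y-linked histone demethylase, had 404 to 1384 counts in BPA5 pups and 323 to 1423 in male controls, against 0 in every female control. Dissection fell between 10.30 and 13.20 in 5 of the 7 BPA5 pups and 6 of the 9 controls. Among 14707 genes, the gap from the highest BPA5 pup to the next was wide, by the criterion for a single outlying value, for 304 genes in pup 88-3y and 193 in 81-1y, against 9 to 107 in the others. With the highest pup also at least 4-fold above the next, these were 15 genes in 81-1y, 8 in 79-2y, 1 in 80-1y and 0 in the rest. Pup 81-1y is described first.

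Pup 81-1y had high levels of a set of genes that were far lower in the other 15 pups. Tfap2b, a transcription factor of the developing hindbrain and neural crest, was at 95 CPM in 81-1y and at most 2.89 CPM in any other pup. Mobp, a myelin protein of oligodendrocytes, was at 28.1 CPM against at most 0.817 CPM elsewhere. Gata3, a transcription factor of midbrain and hindbrain neurons, was at 20.9 CPM against at most 1.46 CPM. The same pup led for Barhl1 (12.1 CPM, at most 0.569 CPM elsewhere) and Ebf3 (69.3 CPM, at most 11.6 CPM), transcription factors of developing neurons, and for Mab21l2 (18.2 CPM, at most 1.33 CPM). These genes were chosen after their values were seen. Without 81-1y the log2 fold change of Tfap2b was 0.41 (adjusted p = 0.778, edgeR), where with it the value was 3.75. For Mobp it was -0.18 without the pup and 3.50 with it, and for Gata3 0.79 and 3.14. Whether the sample of 81-1y held tissue that the other samples lacked was not tested.

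**Figure D1:**
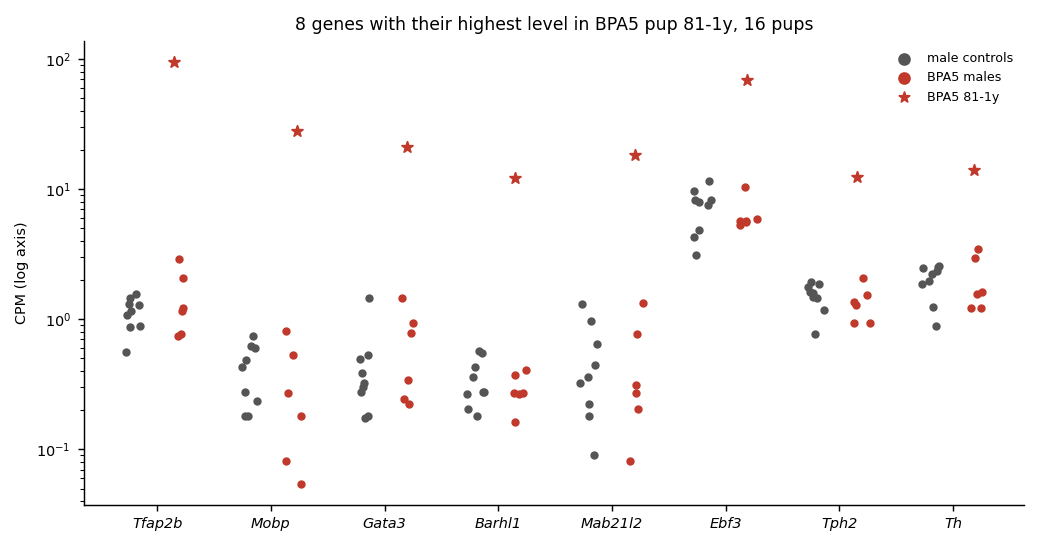
Levels (CPM, log axis) of 8 genes whose highest level was in pup 81-1y, for the 9 control and 7 BPA5 males, with 1 point per pup and a star for 81-1y. Pup 81-1y lies above all other pups, as for Tfap2b at 95 CPM against at most 2.89 CPM elsewhere.

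Of 16393 genes tested, 31 changed at an adjusted p under 0.05 (0.189% of genes tested), 14 being higher (0.0854%) and 17 lower (0.104%) in BPA5 pups (edgeR quasi-likelihood test, Benjamini-Hochberg adjustment). The count was 63 with DESeq2, 7 where every pup needed 10 counts, 14 with feeding controls only, 8 within the time window, 28 without pup 81-1y and 39 without N2-2y. It was 20 with only the form B library of N2-2y. With name form as a covariate, the BPA5 libraries were set against that library alone, without a term for the pup. The log2 fold change then went to 0 or past it for 11 of the 31 genes. Their values ran from near 0, such as 0.00 for LOC102555797 and 0.04 for ND6, to 0.93 for LOC103692338. No count is given for that fit. In the main fit, 667 genes (4.07%) were higher and 825 (5.03%) lower at an unadjusted p under 0.05. The median log2 fold change of all genes was 0.01. For 22 of the 31 the 7 BPA5 and 9 control pups did not overlap, against 0.207% of all genes tested. The 31 were mostly not named genes of known function. They included 23 whose symbols start with LOC or RGD, 74.2% of the 31 against 15.5% of all genes tested. In RefSeq's current rat assembly (GRCr8), 23 of the 31 could be matched, and of these 7 are pseudogenes (30.4% against 1.72% of matched genes tested), 14 coding and 2 long non-coding. By their GRCr8 names 13 are copies of another gene. Their median level was 1.13 CPM against 19.4 CPM for all genes tested, and only 10 had 10 or more counts in each of the 16 pups. Reads of near-identical copies can be divided between loci by the counting, which makes the values of the copies uncertain.

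The largest differences were in 3 genes that were all but absent from BPA5 pups. RGD1562404, named Rps18l3 in GRCr8 as a copy of the small ribosomal subunit gene Rps18, had 0, 0 and 1 counts (lowest, median and highest) in BPA5 pups and 8, 26 and 36 in controls. Over the summed counts of each group, control CPM was 140 times BPA5 CPM (95% exact interval 38.3 to 1161, counting error only). LOC102555797, whose function is not known here, had 0 counts in all 7 BPA5 pups and 9, 12 and 16 in controls. Set against a floor of 3 counts over the BPA5 group, it was at least 44.8-fold lower. Ybx1-ps4, a pseudogene of the RNA-binding protein gene Ybx1, had 0, 1 and 6 counts in BPA5 pups and 16, 25 and 36 in controls, and fell by 4.33 on the log2 scale (SE 0.40, adjusted p = 5.99e-08, edgeR). No BPA5 pup reached the lowest control for any of these genes. Low levels of them were not particular to BPA5. LOC102555797 had 0 counts in the form B library of N2-2y and in every female control, and at most 1 in other high-dose males. Ybx1-ps4 had 4 counts in that library, at most 7 in any female control library and at most 6 in other high-dose males. In low-dose males they had 6 to 27 and 4 to 49 counts.

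Among better measured genes, ND6 and Rps27l3 were separated most clearly. ND6, a subunit of respiratory complex I and the protein gene that mitochondrial DNA carries on its light strand, was at 39.7, 46.7 and 56.1 CPM in BPA5 pups and 72.4, 87.2 and 106 CPM in controls, and fell by 0.92 on the log2 scale (SE 0.11, adjusted p = 9.65e-06, edgeR). No other of the 13 mitochondrial protein genes had p under 0.05, and their median log2 fold change was 0.03. The strand setting of the counting is not given in the sources used here, so reads of the opposite strand cannot be told apart from ND6. Rps27l3, named Rps27a-ps12 in GRCr8, was at 12.3, 14.9 and 16.9 CPM in BPA5 pups and 6.77, 7.48 and 12 CPM in controls, and rose by 0.90 (SE 0.10, adjusted p = 5.65e-07, edgeR). The pups of the groups did not overlap for either gene. With name form as a covariate, BPA5 was set against the form B control library alone. The log2 fold change was then 0.04 for ND6 and 0.00 for Rps27l3. Another fit had a term for form across male and female controls, which joined both readings of form. There the log2 fold change was -0.03 for ND6, which was not called, and 0.91 for Rps27l3, which was.

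A few named coding genes changed as well. Hnrnph3, a splicing regulator that binds pre-mRNA, was at 4.81, 6.86 and 7.34 CPM in BPA5 pups and 3.27, 4.22 and 5.26 CPM in controls, and rose by 0.57 (SE 0.11, adjusted p = 0.0103, edgeR), with overlap between the groups. Ado, the thiol dioxygenase of cysteamine, was at 5.99, 8.59 and 10.1 CPM against 3.83, 5.42 and 6.44 CPM, and rose by 0.61 (SE 0.13, adjusted p = 0.0353, edgeR). Tmem14a, a small membrane protein, was at 2.27, 2.69 and 4.03 CPM against 3.21, 5.84 and 7.15 CPM, and fell by 0.88 (SE 0.20, adjusted p = 0.049, edgeR). The groups overlapped for these 3 genes, and in 16 fits with 1 pup left out Ado was called in 5 and Tmem14a in 4. An entry named Chtop, which GRCr8 names Chtopl1 and so a copy of the mRNA export factor Chtop, was at 1.49, 1.97 and 2.13 CPM against 2.65, 3.1 and 4.39 CPM, and fell by 0.76 (SE 0.12, adjusted p = 0.00132, edgeR). Here every BPA5 pup was below every control. Tfap2b passed the threshold as well (adjusted p = 0.0388, edgeR), through pup 81-1y.

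The remaining called genes were copies and entries without a gene name. Higher in BPA5 pups were LOC100360843 and LOC100362339, named Rps19l3 and Rps19l4 as copies of the ribosomal gene Rps19, LOC688867 (Luc7l3-ps2), LOC692028 (Matr3-ps1), LOC102551813, LOC103694855, LOC100360781, LOC100360522 and RGD1559821, with log2 fold changes from 0.83 to 2.74. LOC100360843 was at 1.02, 1.46 and 1.66 CPM in BPA5 pups and 0, 0.091 and 0.555 CPM in controls (log2 fold change 2.74, SE 0.34, adjusted p = 1.33e-05, edgeR). Lower were the copies LOC100360758 (Prdx1-ps1), LOC100360977 (Ppial4d), LOC102556146 (Ybx1-ps8) and LOC103692338 (Tmsb4xl2), and LOC297756, LOC102550394, LOC103693390, LOC103692051, LOC102548080, LOC363897 and LOC103691125, by 0.39 to 3.71 on the log2 scale. LOC297756 was at 0.0334, 0.222 and 0.406 CPM in BPA5 pups and 0.818, 2.86 and 4.07 CPM in controls, so that the groups did not overlap. The highest level was that of LOC103691125, at 10.7, 12 and 14.7 CPM in BPA5 pups and 14, 15.7 and 19.1 CPM in controls, with overlap.

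None of the tested genes after which the copies are named had an adjusted p under 0.05. Ybx1, an abundant RNA-binding protein gene, was at 333, 395 and 440 CPM in BPA5 pups and 378, 400 and 437 CPM in controls (log2 fold change -0.04, adjusted p = 0.828, edgeR). For Rps18 the log2 fold change was 0.11, for Ppia, encoding cyclophilin A, 0.00 and for Matr3 0.00. The lowest p was that of Tmsb4x, encoding the actin-sequestering thymosin β4, at -0.21 (adjusted p = 0.403, edgeR). The entry named Rps19 had too few counts to be tested, and the entry named Rps27a is in GRCr8 another pseudogene, Rps27a-ps1 (-0.29, adjusted p = 0.523), so that neither source gene was measured.

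Both libraries of control pup N2-2y allowed the called genes to be read in each form of name within a single animal. Its form A library held 16.5 M counts and its form B library 17.7 M. RGD1562404 was at 1.15 CPM in the form A library and 0.0564 CPM in the form B library, ND6 at 101 and 46.1 CPM, Rps27l3 at 8.68 and 15.1 CPM, and Hnrnph3 at 3.95 and 6.48 CPM. For these genes the form B library of the untreated pup lay at or close to the BPA5 range. When the contrast was refitted without N2-2y, 39 genes were called, 30 of them shared with the 31. Of the 18 higher genes in that fit, 16 were also higher in the form B than in the form A library of N2-2y, and of the 21 lower genes 20 were lower, where over all genes tested 47.9% were higher and 52% lower. Counts of 21 of the 31 genes called with N2-2y (67.7%) differed between its libraries beyond counting error (exact binomial interval per gene, 95% level), as did 53.1% of all genes tested, whose median of 654 counts over both libraries was above the 39 of the called genes. The form B library of N2-2y was nearer the BPA5 median than the median of form A controls for 25 of the 31 genes (80.6%), against 55.8% of all genes tested. For the median of form B female controls it was 64.5% against 68%, and for form A female controls 67.7% against 62.6%.

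**Figure D2:**
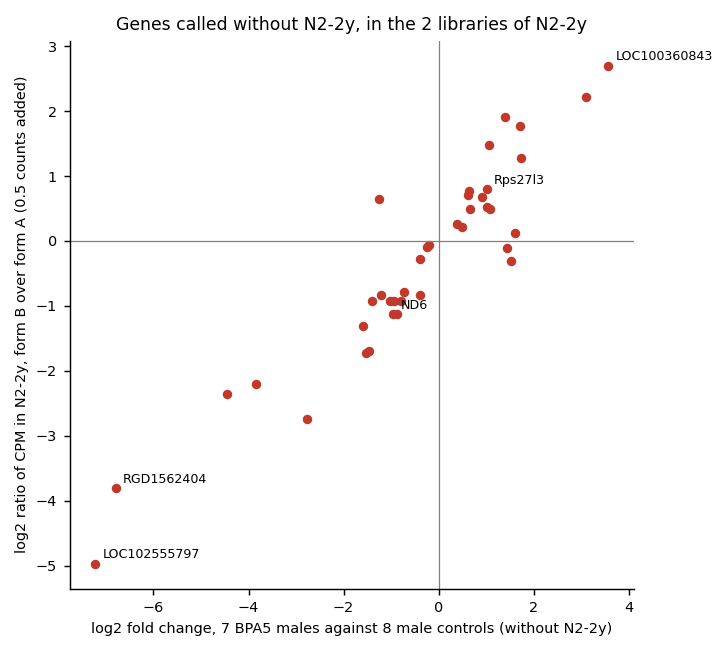
The 39 genes called without pup N2-2y: log2 fold change of 7 BPA5 males against 8 controls (x axis) and log2 ratio of CPM in the form B over the form A library of N2-2y, with 0.5 counts added (y axis). Of the genes right of 0 on the x axis, 16 of 18 lie above 0 on the y axis, and of those left of it 20 of 21 lie below.

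A female control, N4-3x, also had a library of each form (30.2 and 17.7 M counts), although the labels give them different dissection times, 12.09 and 11.55, where those of N2-2y are both at 10.57. There 4 of the 18 higher genes were higher in the form B library and 14 of the 21 lower genes lower, where over all genes tested 41.5% were higher and 58.5% lower. The female control libraries were 6 of form B and 5 of form A, as read from the separator and not from the last letter. Between them 108 of 16577 genes differed (0.652%), 40 being higher and 68 lower in form B (edgeR, Benjamini-Hochberg). With single libraries left out the count was 15 to 145, the lowest without the form A library of N2-4x and the highest without the form B library of N3-1x. The 11 libraries come from 10 pups, since N4-3x is in both arms and no block for the pup was used, and without its form B library the count was 62. Of the 14 genes called higher in BPA5 males, 2 were higher and 9 lower in form B females, with 3 not tested, and of the 17 called lower, 1 was higher and 9 lower, with 7 not tested. Over all genes tested, 46.6% were higher and 53.4% lower. ND6 differed in the same direction as in BPA5 males (log2 -0.90, adjusted p = 0.0014, edgeR), and Rps27l3 was at -0.57 (adjusted p = 0.245). The part of the name form in the BPA5 result was measured in N2-2y only, and in other pups it cannot be separated from treatment.

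The 12 libraries of low-dose males all have form A. For 4 of the 31 called genes (12.9%) their median was nearer the BPA5 median than that of form A male controls, against 37.6% of all genes tested. ND6 was at 79, 102 and 146 CPM (lowest, median and highest) in the 4 males of the low bisphenol A dose (BPA0.5, 0.5 mg/kg), and Rps27l3 at 7.22, 9.53 and 11.4 CPM. RGD1562404 was at 0.343, 0.878 and 2.62 CPM in them, at 0 to 0.0449 CPM in BPA5 males, and at no more than 0.0599 CPM in female controls of either form. At the low dose 7 of 16139 genes were called against male controls (0.0434%; edgeR), which became 21 without pup 69-4y, 1 without 72-4y, 0 without 73-4y and 31 without 75-1y. Doses of bisphenol A therefore differed in form of name as well as in amount.

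**Figure D3:**
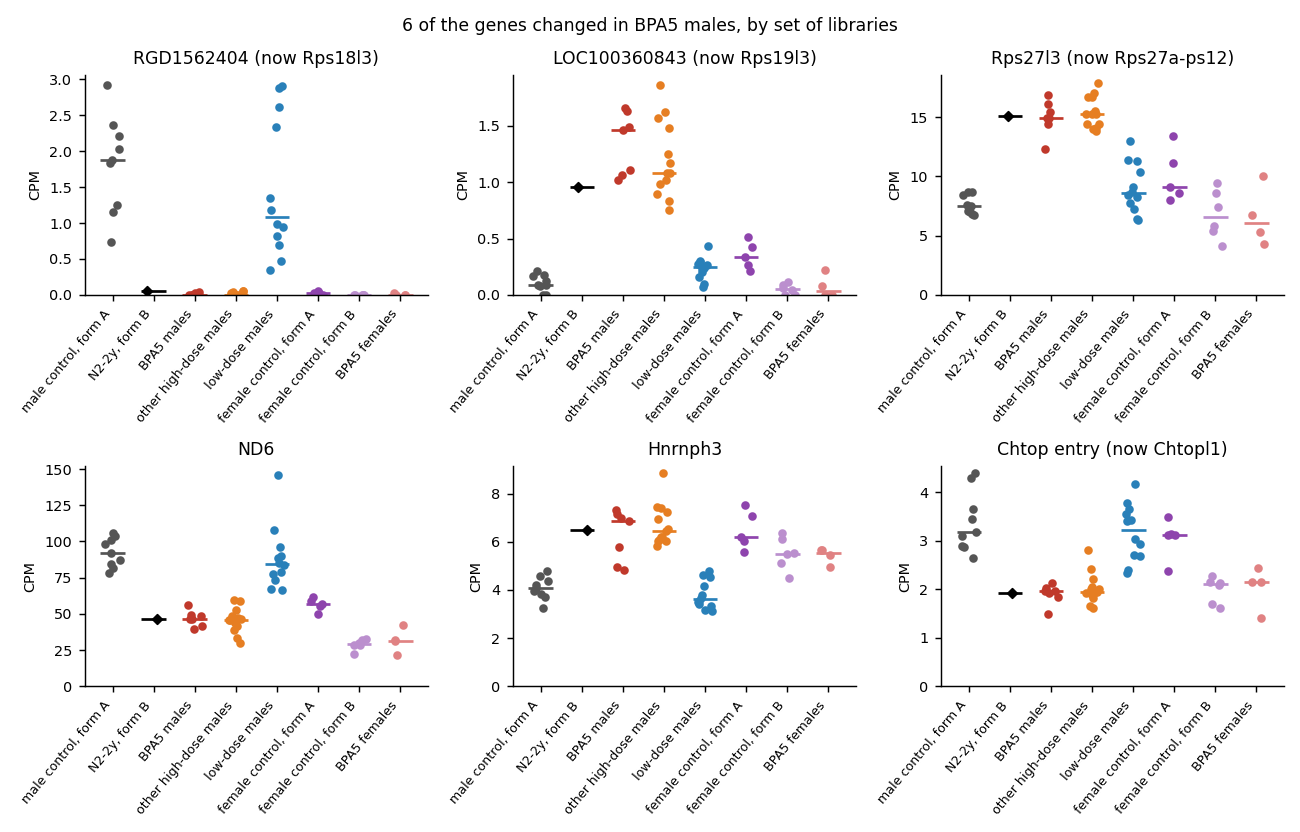
Levels (CPM) of 6 called genes by set of libraries, with 1 point per library, the median as a bar and the form B library of N2-2y as a diamond. RGD1562404 is at 0.742 to 2.92 CPM in form A male controls, at 0.343 to 2.9 CPM in low-dose males and at most 0.0599 CPM in every other set.

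The other high-dose males were 6 of Aroclor 1254 (Aro5, 5 mg/kg in chow) and 7 of chlorpyrifos (CPF3, 3 mg/kg by injection). Aro5 had the dose and route of BPA5, and CPF3 differed in both. Both groups have form B throughout and were compared with the same 9 controls, so their values are set beside those of BPA5 only. ND6 was at 29.7, 42.4 and 59.1 CPM in Aro5 males and 41.8, 45.8 and 59.9 CPM in CPF3 males. Rps27l3 was at 13.8, 14.2 and 17 CPM and at 14.4, 15.5 and 17.9 CPM. RGD1562404 was at 0 to 0.0307 CPM and at 0 to 0.0516 CPM. The BPA5 values of these genes lay inside or beside those ranges. Tested directly, BPA5 males against the mean of the other high-dose males gave no gene with an adjusted p under 0.05 (edgeR; 532 genes at an unadjusted p under 0.05; DESeq2 also 0, with 574). Leaving out 1 BPA5 pup kept the count at 0, while the genes at an unadjusted p under 0.05 were 319 without 81-1y and 1616 without 88-3y. Of the 31 genes, 1 had an unadjusted p under 0.05 there (3.25% of all genes tested), Tfap2b, with a log2 fold change of 3.46 and its high level in 81-1y.

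In the 4 BPA5 females, against 10 female control pups, no gene of 17282 was called (edgeR; 735 at an unadjusted p under 0.05; DESeq2 also 0). The effect of BPA5 differed between the sexes for 7 genes (0.0405%, test of the interaction, edgeR). Some litters gave pups of both sexes, and that test used no block for litter. Ybx1-ps4 had a log2 fold change of -4.33 in males and 0.01 in females. LOC100360843 (Rps19l3) was at 2.74 in males and -1.74 in females, LOC103694855 at 2.26 and -2.23, and LOC102551813 at 0.94 and -0.75. The others were LOC679963 (Eef1a1-ps15), LOC688682 and LOC100362339 (Rps19l4). Ybx1-ps4 was low in females of either group, at a median of 0.122 CPM in controls and 0.123 CPM in BPA5, against 1.64 CPM in male controls. A fall like that of males could not be seen from that level. In BPA5 females LOC100360843 had 0 to 3 counts and LOC103694855 had 0 to 4. Leaving out BPA5 female 85-4x or 91-9x brought the count to 0, and leaving out 81-6x to 3. The form of the BPA5 females' names cannot be read and female controls hold both forms, so the sex difference cannot be told apart from the balance of forms.

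Esr1, Esrrg and the other genes of estrogen signalling were read by gene list, beside the counts over all genes tested. Of 17 estrogen genes tested, 4 were higher and 0 lower at p under 0.05 (background 4.07% and 5.03%), with a median log2 fold change of 0.15, and 1 of the 4 was Gata3, which was high in 81-1y. Esr1, encoding estrogen receptor α, was at 4.04, 5.89 and 8.97 CPM in BPA5 pups and 3.73, 4.92 and 9.7 CPM in controls (log2 fold change 0.15, SE 0.18, adjusted p = 0.798, edgeR), so the groups overlapped. Esrrg, encoding ERRγ, was at 32.5, 42.2 and 64.9 CPM against 44.7, 53 and 61.3 CPM (-0.15, SE 0.17). Ncoa3, a coactivator of steroid receptors, was at 30.3, 35.4 and 39.7 CPM against 24.4, 30.5 and 33.2 CPM (0.23, adjusted p = 0.449, edgeR). Gper1, a membrane receptor for estrogen, was at 0.17. Esr2 was too low to be tested, with at most 0.317 CPM in BPA5 pups and 0.371 CPM in controls. The 18 genes of steroid receptors and enzymes and the 20 thyroid hormone genes had no member at p under 0.05. Of 32 xenobiotic and antioxidant genes, 1 was higher and 1 lower at p under 0.05, with a median of 0.01. Gsta4, a glutathione transferase, was at -0.25, and Ahr, the dioxin receptor, was at 2.23, 4.8 and 6.41 CPM against 0.244, 2.28 and 4.38 CPM (log2 fold change 0.93, adjusted p = 0.449, edgeR).

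Most of the study's own Sox, Pou and signalling genes were chosen on these samples, so their direction is not independent evidence. Per the study, Nrg1 and Erbb4 were taken from its earlier work on mixtures of endocrine disrupters. Of 19 entries tested, 5 were higher and 0 lower at p under 0.05 (background 4.07% and 5.03%), with a median of 0.22, and no adjusted p was under 0.05. Pou3f2 (Brn2), a neuronal POU factor, was at 6.03, 10.7 and 17.8 CPM in BPA5 pups and 4.24, 6.58 and 10.4 CPM in controls (log2 fold change 0.78, SE 0.22, adjusted p = 0.218, edgeR). Pou2f2 was at 0.57, Sox11, of immature neurons, at 0.44, Sox17 at 0.38 and Nrg1, the ligand of Erbb4, at 0.29, each with p under 0.05. Sox6, which interneurons of the medial ganglionic eminence need, was at 10.6, 16.3 and 23.3 CPM against 9.83, 15.1 and 23.7 CPM, with a log2 fold change of 0.06. The ranges of BPA5 and control pups overlapped for Pou3f2 and Sox6. The study's own transcriptomics had Sox6 higher after this dose, at a false discovery rate under 0.05. Its real time RT-PCR used males of the same litters whose samples had not entered transcriptomics, and there Sox6 and Sox11 were also higher at this dose. In form B female controls the same list had a median of 0.19, and in males it was 0.39 for Aro5 and 0.34 for CPF3, contrasts that share the 9 controls.

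**Figure D4:**
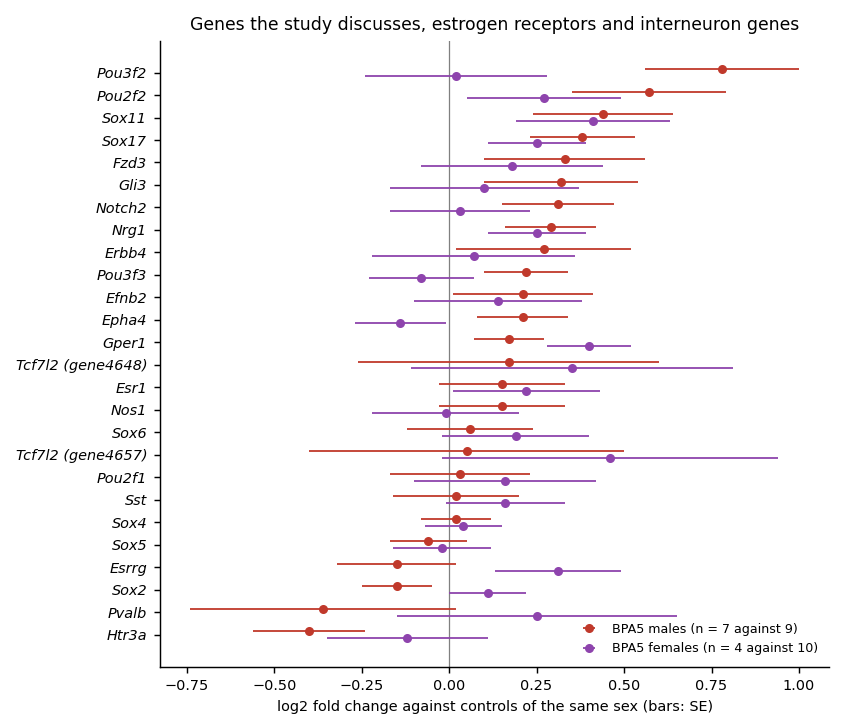
Log2 fold change against controls of the same sex for the study's genes, estrogen receptors and interneuron genes, in BPA5 males (7 against 9) and BPA5 females (4 against 10), with bars of 1 SE. In males Pou3f2 is highest at 0.78 and Htr3a lowest at -0.40, and no gene shown passed the adjustment.

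Interneuron and synaptic genes followed. Of 29 interneuron genes, 1 was higher and 4 lower at p under 0.05 (background 4.07% and 5.03%), with a median of 0.02. Gad1, the enzyme that makes GABA, was at 108, 130 and 205 CPM against 134, 183 and 235 CPM (log2 fold change -0.34, adjusted p = 0.523, edgeR), and Htr3a, a serotonin receptor of interneurons, was at -0.40. Sst and Pvalb, which mark interneuron classes, were at 0.02 and -0.36. Of 38 synapse genes, 4 were higher and 0 lower, with a median of 0.09, among them Shank1, a postsynaptic scaffold (443, 619 and 709 CPM against 412, 468 and 544 CPM, log2 fold change 0.36, SE 0.13). The form B female controls had 20 higher and 0 lower synapse genes (background 7.37% higher and 7.81% lower), with a median of 0.23. Glutamate receptors (24 tested, 0 higher and 1 lower) and GABA receptors (17 tested, none) gave medians of 0.07 and 0.05. No listed gene in these groups was called.

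At an unadjusted p, ribosomal protein and respiratory chain genes were more often lower than higher. The background for all lists here was 4.07% higher and 5.03% lower in BPA5 males, and 7.37% and 7.81% in form B female controls. Of 72 ribosomal protein genes, 0 were higher and 17 lower at p under 0.05, with a median of -0.06 (all genes tested 0.01). The 17 include the entry named Rps27a (-0.29), which in GRCr8 is the pseudogene Rps27a-ps1. Rpl26 was at 76.6, 95.3 and 112 CPM in BPA5 pups and 103, 116 and 124 CPM in controls (log2 fold change -0.28, adjusted p = 0.136, edgeR). Of 71 nuclear genes of oxidative phosphorylation, 0 were higher and 11 lower, with a median of -0.06, Cox7c being at -0.24. In form B female controls the ribosomal list had 1 higher and 29 lower genes with a median of -0.17, and the respiratory list 1 and 19 with -0.09. Of 31 genes of DNA methylation and chromatin, 6 were higher and 0 lower, with a median of 0.10, and Ep300, a histone acetyltransferase, was at 49.2, 63.8 and 69.5 CPM against 40.8, 50.2 and 64.7 CPM (log2 fold change 0.27). That list had 5 higher and 1 lower in form B female controls. In BPA5 males 4 of 18 clock genes were higher and 0 lower, Per2 being at 0.22. No listed gene of these groups was called, and of the splicing and export genes (68 tested) Hnrnph3 and the copy entry named Chtop were, while the entry of Chtop itself was at -0.12 (adjusted p = 0.547, edgeR).

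**Figure D5:**
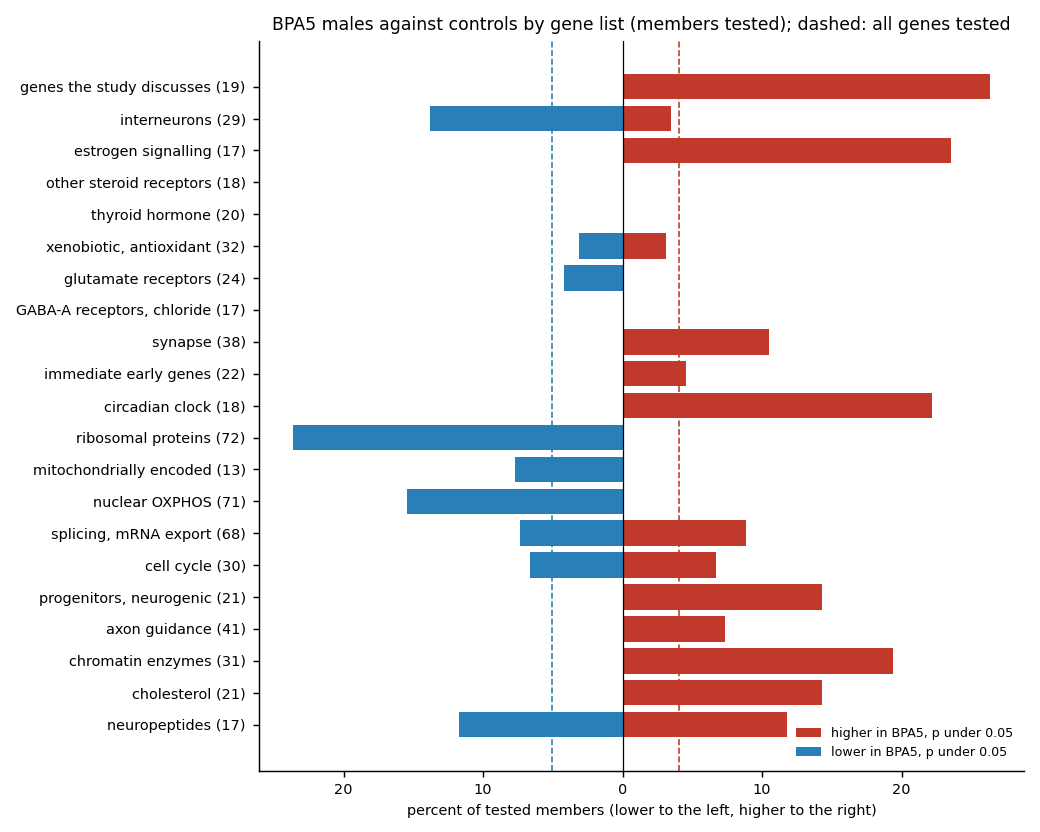
Percent of the tested members of each pathway list that were higher (right) or lower (left) in BPA5 males at an unadjusted p under 0.05, with dashed lines at the share of all genes tested (4.07% and 5.03%). Ribosomal proteins (17 of 72 lower, the pseudogene entry named Rps27a among them) and respiratory chain genes (11 of 71 lower) lie left of the dashed line. The study's genes (5 of 19 higher) lie right of it.

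Markers of other tissue were read beside these lists. Of 10 striatal genes, none had a positive log2 fold change, with a median of -0.70, and their summed level was 108 to 476 CPM with a median of 291 in BPA5 pups and 146 to 848 CPM with a median of 497 in controls. Penk, the enkephalin precursor, was at 16.4, 53.2 and 113 CPM against 31.1, 114 and 215 CPM (-0.97, adjusted p = 0.538, edgeR). Form B female controls had a striatal median of -0.74. The hippocampal markers summed to 424 to 830 CPM with a median of 652 in BPA5 pups and 525 to 725 CPM with 659 in controls. The markers of thalamus summed to 468 to 1298 CPM with a median of 1031 in BPA5 pups and 579 to 1435 CPM with 753 in controls. The median log2 fold change of the thalamic genes was 0.05. Among BPA5 pups, 81-1y had the lowest hippocampal sum (424 CPM) and the highest thalamic (1298 CPM) and striatal (476 CPM) sums. Fibcd1, a marker of hippocampal field CA1, was at 0 in every pup in both of its entries. The 9 choroid plexus genes had a median of -0.18 and the 10 astrocyte genes 0.01. Oligodendrocyte markers summed to 800 to 1424 CPM in BPA5 pups, the highest being 81-1y, and to 865 to 1211 CPM in controls. The medians were 0.08 for neocortex, 0.82 for the 4 tested hypothalamic genes, -0.06 for ependyma, -0.03 for microglia, 0.00 for endothelium, 0.20 for mural cells and meninges and 0.01 for blood, and no marker gene was called. The hypothalamic markers were low, summing to 2.59, 4.4 and 23.6 CPM in BPA5 pups, the highest being 80-1y. In controls they summed to 2.44, 5.9 and 12.9 CPM. In bulk tissue, fewer cells of a type and less RNA per cell cannot be told apart, and the part of tissue mixture in the gene values was not tested.

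Neurogenic and guidance genes were read in the same way. Of 21 progenitor and neurogenic genes, 3 were higher and 0 lower at p under 0.05, with a median of 0.11. For this and the next lists the background was 4.07% higher and 5.03% lower. Hes5, a Notch target of neural progenitors, was at 2.35, 7.76 and 14.1 CPM in BPA5 pups and 2.83, 4.45 and 7.23 CPM in controls (log2 fold change 0.79, adjusted p = 0.523, edgeR), so that the groups overlapped. Of 41 axon guidance genes, 3 were higher and 0 lower, with a median of 0.09, and Unc5a, a netrin receptor, was at 40.5, 70.7 and 82 CPM against 35.4, 46.4 and 54.1 CPM (log2 fold change 0.50). The 30 cell cycle genes had 2 higher and 2 lower (median 0.01), the 22 immediate early genes 1 and 0 (-0.06), the 21 cholesterol genes 3 and 0 (-0.01) and the 17 neuropeptide genes 2 and 2 (0.22). None of these genes was called.

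Last, 10 named genes with at least 5 CPM had p under 0.01 and no overlap between the groups. They were ND6 and Rps27l3 and 8 genes that did not pass the adjustment: Lgr6 (log2 fold change -0.35), a receptor for R-spondins, Nae1 (-0.22), of the NEDD8-activating enzyme, Dnajc7 (-0.20), a co-chaperone, Rpap3 (-0.15), Pa2g4 (-0.15), Nbr1 (-0.13), an autophagy receptor, Cs (-0.12), citrate synthase, and Sh2b3 (0.23), an adaptor of cytokine signalling. Dnajc7 was at 146, 161 and 181 CPM in BPA5 pups and 185, 189 and 196 CPM in controls (SE 0.05, adjusted p = 0.109, edgeR). Lgr6 was at 14.8, 17.7 and 20 CPM against 20.1, 22.5 and 25.6 CPM. The rule that selected them required that the groups not overlap, so the separation is a description and not a finding.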

How the data were processed

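RNA-seq counts of the 66 libraries were used as the authors deposited them, as raw read counts per gene over 37777 entries. Per the labels, reads were stranded, single-end and 100 bp long; the study's methods name another instrument and read length. The submitters' processing notes name STAR, featureCounts and kallisto, without versions; the genome build was Rnor_6.0, and multi-mapping and strand settings are not given in the sources used here. Both libraries of N2-2y and of N4-3x were summed. No column of per-sample values was left unused (0). Of the IDs, 28336 matched RefSeq GRCr8 names.

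Genes were filtered with filterByExpr and tested with edgeR 4.0.16 (TMM, quasi-likelihood F test, R 4.3.3) in 1 fit of 29 high-dose and control males; BPA5 was contrasted with the controls, and p-values were Benjamini-Hochberg adjusted over 16393 genes, at a threshold of 0.05. The female and interaction fits held 52 pups. DESeq2 1.42.0 was an alternative, and the tests were checked on simulated data. CPM is counts per 1000000 counted reads. Named genes were all called genes, the 2 genes of smallest p in each of 21 pathway and 13 marker lists if under 0.05, the study's genes and the non-overlapping genes described last in the report. One called gene is counted but not reported by name here. Members and lists were chosen with earlier results of these data known. BPA5 and control pups of a sex come from separate litters, but 1 litter gave 2 Aro5 males and another 2 Aro5 females. Some BPA5 and control litters gave both a male and a female to the interaction fit. No block for litter was used in the main fits. Intervals cover counting error only.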

Additional observations from a re-analysis of the deposited data

Results flagged for a closer look

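Single pups were set apart from the rest of their group in 6 of 117 sets of pups (39 genes in 3 groups), by the size of the gap to the nearest pup; chance flags about 1 in 20. Tfap2b was at 95 CPM in BPA5 pup 81-1y against 2.89 CPM in the next, and at 0.557 CPM in injection control 6-5y against 1.28 CPM. Pup 88-3y of BPA5 was highest for LOC692028 at 0.811 CPM (next 0.545 CPM) and for LOC102556146 at 0.892 CPM (next 0.573 CPM). Pa2g4, a regulator of growth, was at 106 CPM in 81-1y against 122 CPM in the next lowest BPA5 pup. Cs was at 233 CPM in feeding control N3-4y against 217 CPM.

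The effect of BPA5 differed between males and females, in a test of the interaction (edgeR, Benjamini-Hochberg), for 7 genes. The male minus female log2 fold change was -4.35 for Ybx1-ps4, 4.51 for LOC103694855, 1.69 for LOC102551813, 2.39 for LOC679963, 4.49 for LOC100360843, 1.82 for LOC688682 and 2.21 for LOC100362339, with adjusted p from 0.0123 to 0.029. Ybx1-ps4, LOC103694855 and LOC100360843 had at most 4 counts in any BPA5 female.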

How the results depend on the processing

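The count of 31 called genes in BPA5 males was 63 with DESeq2, 7 with at least 10 counts in every pup and 16 in a fit of BPA5 and control males only. It was 14 with feeding controls only, 8 with pups of the time window only and 20 with only the form B library of N2-2y. It was 20 (18 higher and 2 lower) with a term for form fitted to male and female controls, which joined both readings of form. That alternative was added after the data were seen. With name form as a covariate, BPA5 was set against the form B library of N2-2y alone, so no count is given for that fit. With 1 pup left out the count was 25 to 39. Against other high-dose males it was 1 without the filter and 0 with each pup left out. In BPA5 females it was 0 to 1 with 1 pup left out. The sex difference gave 15 genes with DESeq2, 11 with a replicate block for litter, and 0 to 9 with 1 pup left out. At the low dose it was 39 with DESeq2, 11 with DESeq2 size factors and 0 to 31 with 1 pup left out. In form B female controls it was 493 with DESeq2, 237 without the route of dosing and 15 to 145 with 1 left out.

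With name form as a covariate the log2 fold change turned to 0.26 for LOC102548080, 0.01 for Chtop, -0.04 for LOC103694855, -0.16 for LOC688867, 0.93 for LOC103692338, 0.00 for LOC102555797, 0.23 for LOC103691125, 0.16 for Tmem14a, -0.03 for Hnrnph3 and 0.04 for ND6. With the term fitted to male and female controls it was 1.18 for LOC102548080 and 0.01 for Nae1. Of the 31 genes, 22 were called with each of the 16 pups left out; Ado, LOC100360522, LOC102548080, LOC103691125, LOC363897, LOC688867, RGD1559821, Tfap2b and Tmem14a were not. The cause of these changes was not tested.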
